A study of Mus musculus with 6 samples.

Results

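The histone genes of platelet RNA were examined in peripheral blood platelets of C57BL/6 mice. Members were chosen by their symbols, as every row of the deposited table named as an H1, H2A, H2B, H3, H4 or macroH2A gene, and 68 of the 14975 listed genes met that rule. The family was selected with the values of these control and pre-AML libraries in view. Of the 68 members, 59 were clustered replication-dependent genes (6 H1, 13 H2A, 17 H2B, 12 H3 and 11 H4 genes) and 9 were variants (H1f0, H3f3a, H3f3b, H3f3c, H3f4, H2ax, H2az1, H2az2 and Macroh2a1). Against the annotation, H3f3c and H3f4 were listed as pseudogenes, so the label of a histone variant gene held for 7 of the 9.

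The control libraries, labelled WT, came from irradiated mice that had received normal bone marrow. The pre-AML libraries, labelled AML, came from irradiated mice that had received hematopoietic stem and progenitor cells transformed by MLL-AF9, a fusion oncogene delivered by a retrovirus that also carried GFP. Platelets of this group were taken 1 week after transplantation, a time that the labels themselves do not give. Both groups were female recipients and shared irradiation and transplantation, so neither stands for unperturbed blood. Platelet-rich plasma was depleted of CD45 and Ter119 positive cells, and polyA RNA was turned into cDNA by SMART-Seq2 and tagmented with Nextera XT. Each group had 3 libraries, whereas the series' own description names 2 replicates in each. It also mentions pools of 3 to 4 mice, while the methods speak of independent mice. What the 3 libraries of a group are replicates of is therefore not settled, and every SD and SE measures the spread between these libraries, which may be technical in part.

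Histones are the proteins around which DNA is wound. Pairs of H2A, H2B, H3 and H4 make the nucleosome core, and H1 binds the DNA between cores. The clustered genes are made in S phase, when DNA is copied, and their messages usually end in a short stem-loop, without a polyA tail. The stem-loop is bound by the protein Slbp, which directs the processing, export and translation of the message. Variant genes such as H3f3a and H2az1 lie outside the clusters, are made through the whole cell cycle and give spliced, polyadenylated messages. Platelets have no nucleus and make no new RNA from chromosomal genes, so their histone messages are carried over from the megakaryocyte, which copies its DNA several times before it sheds platelets. A library that starts from polyA tails would be poor in messages that end at the stem-loop.

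The stem-loop was searched in the annotated transcripts of GENCODE release M21 on GRCm38, as a paired stem of 6 bases that begins with GG and ends with CC around a loop of 4 bases. It was read on the strand of the transcript, after the stop codon. It stood in 40 of the 59 clustered members, against 1.55% of the 52034 coding transcripts with sequence after their stop codon. In the other 19 clustered members the annotation leaves little or no sequence after the stop codon for 13, and 6 had 20 bases or more without a match. The distance from the stop codon to the stem-loop was 21 to 58 bases. The stem-loops below are shown because they belong to the leading H1 and H2A members, to H4 members compared with each other below, to a variant that also has one, and to the clustered member with the lowest difference between groups. Capitals mark the 6 bases of each arm of the stem, the loop lies between the arms, and up to 5 bases stand on each side.
H1f2 (chr13:23739507-23739532, plus strand): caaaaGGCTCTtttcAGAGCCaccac
H2ac6 (chr13:23683472-23683497, minus strand): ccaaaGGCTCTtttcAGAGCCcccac
H4c9 (chr13:22040961-22040986, minus strand): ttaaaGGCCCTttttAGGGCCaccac
H4c17 (chr13:21812124-21812147, plus strand): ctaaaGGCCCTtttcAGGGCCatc
H4c8 (chr13:23531453-23531478, plus strand): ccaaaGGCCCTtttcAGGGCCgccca
H2ax (chr9:44335235-44335260, plus strand): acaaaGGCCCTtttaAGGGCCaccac
H3c15 (chr3:96238480-96238505, minus strand): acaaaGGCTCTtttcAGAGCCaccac
The stem and loop of H1f2 were shared without change by 22 members of the H1, H2A, H2B and H3 types. Those of H4c17 and H4c8 were shared by 6 H4 members. After the stem-loop the annotated transcript went on for 840 bases in H1f2, 2010 bases in H2ac6, 330 bases in H4c9, 822 bases in H2ax and 377 bases in H3c15, but for 3 bases in H4c17 and 46 bases in H4c8.

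H2bc4, which had the highest level of all members, lies head to head with H2ac6 on chromosome 13. The 239 bases between the RefSeq start of H2ac6 and the GENCODE start of H2bc4 are shown because the stretch lies upstream of both genes (RefSeq GRCm38.p6, chr13:23683960-23684198, minus strand, read toward H2ac6). Capitals mark 3 motifs that were searched on both strands. They are the TATA box, spelled TATAAA, the site known as the CCAAT box, and the octamer, spelled ATTTGCAT. No marked run overlaps another.
H2ac6 and H2bc4: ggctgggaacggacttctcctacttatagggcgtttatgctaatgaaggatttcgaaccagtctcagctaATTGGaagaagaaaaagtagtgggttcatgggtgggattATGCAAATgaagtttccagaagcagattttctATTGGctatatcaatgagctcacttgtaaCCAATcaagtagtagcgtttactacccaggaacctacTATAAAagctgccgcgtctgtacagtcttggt
Promoter windows, from 250 bases before to 50 bases after the start, were matched for 62 of the 68 members, 54 of them clustered. The octamer was in 12 of the 54 clustered windows and in 7 of the 14 windows of H2B genes, against 1.75% of 32544 promoters. The CCAAT box was in 46 of the 54 windows and in all 14 H2B windows, against 37.4%, and the TATA box in 32 of the 54, against 13.6%. A match describes these letters and is not evidence of a bound factor.

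The library pre-AML 3 stood apart from the others. On the first principal component, which held 70.2% of the variance, it was at 41.9, against -12.7 to -2.12 for the other 5. In deposited FPKM it had the most B cell and macrophage marker RNA and the lowest platelet marker sum, as given with the marker lists further on. Its FPKM had been divided by a size 1.31 times its recovered reads, which lowers such sums. Results are therefore given with and without it where it moves them.

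Histone messages made up a small share of the platelet reads. FPKM (fragments per kilobase of transcript, scaled to library size) was turned back into reads from gene length, and 11934361 to 17774480 reads were recovered per library. The clustered members took 0.675%, 0.742% and 0.785% of them in controls 1 to 3, and 0.683%, 0.756% and 0.755% in pre-AML 1 to 3. For 7 members, H2bc4 and H2bc6 among them, the annotated length did not return whole reads, so these shares are estimates. H2bc4 alone made an estimated 41145 of the 80547 clustered reads of control 1. The variants took 0.108% to 0.136% in every library. The groups overlapped for both classes. In bulk platelets, fewer cells of a kind and less RNA per cell cannot be told apart. Summed FPKM of the clustered members was 6502, 7046 and 7575 in controls and 6914, 7344 and 5785 in pre-AML platelets, a mean of 7041 ± 537 (SD, n = 3) against 6681 ± 805 (SD, n = 3). The lowest of the 6 sums was that of pre-AML 3. The FPKM of this library had been divided by a size 1.31 times its recovered reads, against 0.983 to 1.01 times in the other 5. With every library scaled to its own recovered reads, the sums were 6395, 7146 and 7528 in controls and 6796, 7435 and 7593 in pre-AML platelets, and pre-AML 3 was then the highest.

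The clustered members were unequal in level. Mean FPKM over the 6 libraries was above 100 for 9 of the 59, between 10 and 100 for 5, between 1 and 10 for 20, and below 1 for 25. Their median was 1.88 FPKM. The 12 members with the highest mean carried 98.2% to 98.5% of the summed clustered FPKM in each library. A mean of 100 FPKM or more was reached by 359 of the 14975 listed genes (2.40%). On a gene of 400 bases, 3 reads amount to 0.321 to 0.639 FPKM in these libraries, while a longer gene has more reads at the same FPKM. Of the 59 clustered members, 18 were at 0 in at least 1 library, and H2ac10 and H1f6 were at 0 in all 3 controls.

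**Figure D1:**
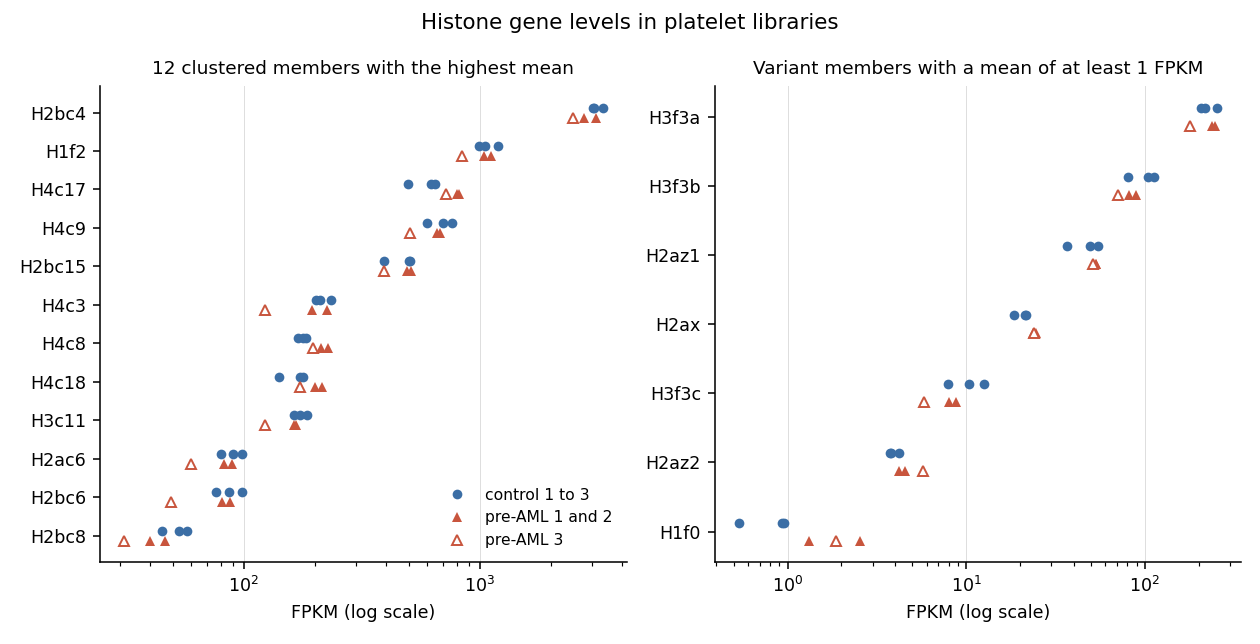
FPKM on a log scale in each library, for the 12 clustered members with the highest mean on the left and the 7 variants averaging 1 FPKM or more on the right. Circles are controls 1 to 3, filled triangles pre-AML 1 and 2, and open triangles pre-AML 3. Pre-AML 3 is the lowest pre-AML library for all clustered members shown, but its FPKM had been divided by a size 1.31 times its recovered reads. Over all tested genes its median log2 difference from the control mean was -0.16. Scaled to recovered reads, pre-AML 3 is the highest pre-AML library for H2bc4 and H4c17 and the lowest for H4c3. H2bc4 stands at 2483 to 3320 FPKM, and H4c17, H4c8, H2ax, H2az2 and H1f0 have all pre-AML libraries above all controls.

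Among linker histones, H1f2 alone was present in quantity. Its level was 993, 1050 and 1196 FPKM in controls and 1041, 1114 and 838 FPKM in pre-AML 1 to 3, and the groups overlapped. It carried 99.9% of the clustered H1 FPKM in every library and ranked 58 of the 14975 genes by mean FPKM. The message rested on 18189 to 30498 reads per library. The other 5 clustered H1 genes (H1f1, H1f3, H1f4, H1f5 and H1f6) had mean levels of 0.047 to 0.606 FPKM. H1f4 shares annotated exon sequence with H2bc6, so its reads cannot be assigned cleanly.

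Among H2B genes, which code for the partner of H2A in the core, H2bc4 dominated. It was at 3032, 3054 and 3320 FPKM in controls and 2760, 3105 and 2483 FPKM in pre-AML 1 to 3, and ranked 20 of all genes. The groups overlapped, with pre-AML 3 lowest and control 3 highest. H2bc4 made up 80.4% to 84.5% of the H2B sum and 39.9% to 46.6% of the whole clustered sum. Its only annotated transcript is spliced from 2 exons and has 742 bases after the stop codon without a stem-loop. H2bc15 followed with 395, 501 and 509 FPKM in controls and 513, 494 and 392 FPKM in pre-AML 1 to 3. H2bc6 had 76.5, 98.8 and 86.3 against 80.9, 87.5 and 49.4 FPKM, and H2bc8 had 44.9, 53.1 and 57.5 against 40.01, 46.6 and 31.1 FPKM. Control and pre-AML values overlapped for H2bc15, H2bc6 and H2bc8. The proteins of H2bc6 and H2bc8 were identical to that of H2bc4 over 126 residues, and that of H2bc15 differed at 1 residue, from the translated GENCODE transcripts.

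Clustered H2A messages were far scarcer per length. The summed H2A FPKM, variants included, was 166 to 197 per library, and the H2B sum was 17.4 to 20.9 times as high. H2ac6 was the main clustered H2A gene, at 80.0, 90.3 and 98.3 FPKM in controls and 89.3, 82.7 and 60.0 FPKM in pre-AML 1 to 3, with overlapping groups. It carried 71.0% to 77.3% of the clustered H2A sum. The H2bc4 to H2ac6 ratio was 35.2 ± 2.37 (SD, n = 3) in controls and 36.6 ± 5.29 (SD, n = 3) in pre-AML platelets, although both lie beside the same 239 bases shown above. These ratios depend on the lengths behind the FPKM. The annotated exons span 2482 bases in H2ac6, a length that returned whole reads, and 1156 bases in H2bc4, which did not, so the length used for H2bc4 is not known. In reads H2ac6 had 2330 to 3476 per library and H2bc4 an estimated 41145 to 66956. Of the 13 clustered H2A genes, 8 code for the same protein, so the level of that protein's messages is a sum over genes.

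Clustered H4 messages, from genes that differ in sequence but not in product, were spread over more loci. All 11 clustered H4 genes code for an identical protein of 103 residues. H4c17 led with 496, 620 and 647 FPKM in controls and 802, 821 and 720 FPKM in pre-AML 1 to 3, and H4c9 had 598, 703 and 765 against 661, 679 and 507 FPKM. H4c3 was at 203, 212 and 235 against 225, 195 and 124 FPKM. For H4c17 all pre-AML libraries lay above all controls, while H4c9 and H4c3 overlapped between groups. H4c8 was at 170, 178 and 183 FPKM in controls and 214, 227 and 196 FPKM in pre-AML platelets, again without overlap. H4c18 was at 141, 174 and 179 against 215, 200 and 173 FPKM, and overlapped through pre-AML 3. The other 6 H4 genes (H4c1, H4c2, H4c4, H4c6, H4c11 and H4c12) were at mean levels of 0.294 to 1.90 FPKM.

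H4c17 and H4c18 cannot be fully told apart. Of all 50-base stretches of H4c17, 89.8% also occur in another gene, H4c18 first among them, and 85.6% of those of H4c18 do. Their promoters shared an unbroken run of 249 bases. The promoters of H4c17 and H4c9 shared a run of 38 bases, shown because the ratio of these genes is described below. It lies at chr13:21811686-21811723 on the plus strand for H4c17 and at chr13:22041384-22041421 on the minus strand for H4c9 (RefSeq GRCm38.p6).
H4c17 and H4c9: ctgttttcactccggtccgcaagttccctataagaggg
The run begins 60 bases before the start of H4c17 and 59 bases before that of H4c9.

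H3 was the type in which variants outweighed clustered genes. H3f3a and H3f3b code for the same H3.3 protein, which is laid down outside S phase. H3f3a was at 206, 254 and 217 FPKM in controls and 248, 238 and 179 FPKM in pre-AML 1 to 3, and H3f3b at 81.0, 104 and 112 against 89.4, 82.0 and 70.9 FPKM. Both overlapped between groups. The main clustered gene, H3c11, was at 164, 186 and 173 against 163, 166 and 123 FPKM, and its protein differs from H3.3 at 5 of 136 residues. H3c4, next in level with a mean of 22.9 FPKM, differs at 4. Clustered genes carried 38.4% to 40.8% of all H3 FPKM in controls and 36.5% to 38.7% in pre-AML platelets. H3f3c, the annotated pseudogene, was at 5.84 to 12.6 FPKM, and 73.8% of its 50-base stretches also occur in other genes, with H3f3a first, so its reads are uncertain.

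**Figure D2:**
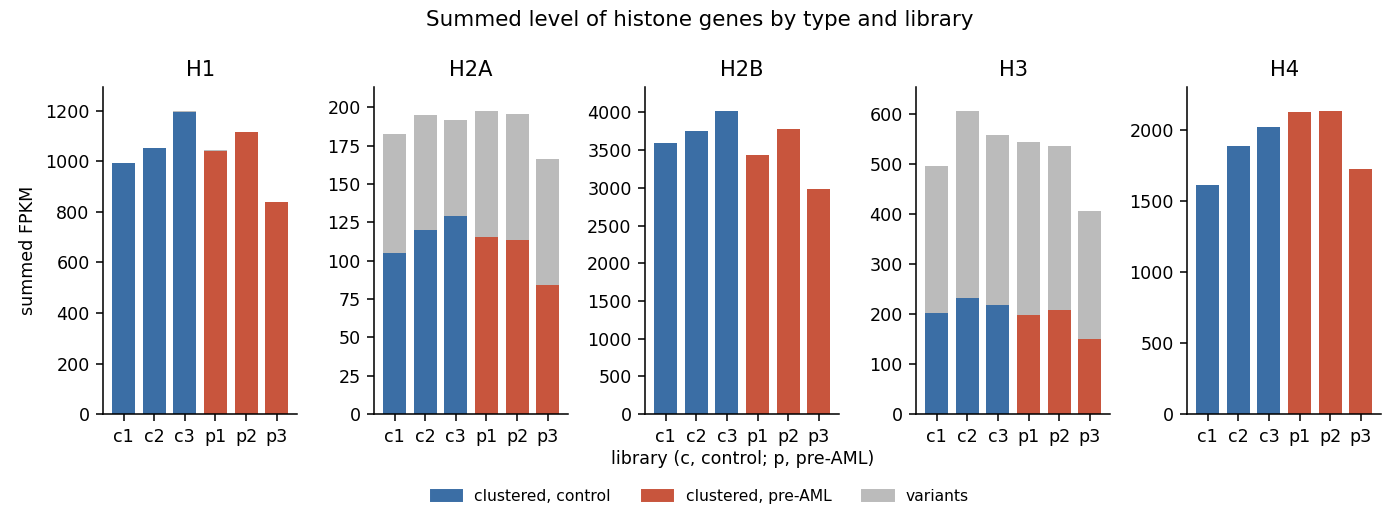
Summed FPKM by histone type in each library, with 1 bar per library, coloured for the clustered members of controls (c1 to c3) and pre-AML platelets (p1 to p3) and grey for the variants stacked on top. The scales differ between panels. H2B reaches 2987 to 4012 FPKM and H4 1612 to 2128, while H2A stays below 200 and H3 is carried more by variants than by clustered genes.

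The remaining variants were lower. H2az1, which codes for H2A.Z, a variant found at promoters, was at 54.9, 49.4 and 36.8 FPKM in controls and 53.0, 53.6 and 51.4 FPKM in pre-AML 1 to 3, with overlap. H2az2, the second H2A.Z gene, was at 3.76, 3.79 and 4.22 against 4.56, 4.22 and 5.72 FPKM. H2ax, whose product is phosphorylated at DNA breaks and whose message carries both a stem-loop and a long extension, was at 18.7, 21.4 and 21.6 against 23.7, 24.6 and 23.9 FPKM. All pre-AML libraries lay above all controls for H2ax and, narrowly between control 3 and pre-AML 2, for H2az2. H1f0, the linker histone of cells that have stopped dividing, was at 0.954, 0.934 and 0.532 FPKM in controls and 2.56, 1.32 and 1.88 FPKM in pre-AML platelets, also without overlap. In reads that was 23, 27 and 13 against 70, 41 and 90. H3f4 and Macroh2a1 were below 1 FPKM on average.

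High levels occurred with several kinds of annotated 3' end. Of the 12 clustered members with the highest mean, H1f2, H4c9, H4c3, H2ac6 and H2bc8 have transcripts that run over 100 bases past the stem-loop, H2bc4 and H2bc6 have spliced ones, H4c17, H4c8 and H4c18 end within 100 bases of the stem-loop, and H2bc15 and H3c11 are annotated to the stop codon only. The median level was 2.29 FPKM for the 18 members that run over 100 bases past the stem-loop and 3.56 FPKM for the 20 that end within 100 bases of it. For the 13 whose annotation stops within 20 bases of the stop codon it was 0.439 FPKM. A polyA signal, AATAAA, stood in the last 40 bases of a transcript in 10 of the 59 clustered members. Of the coding transcripts with sequence after their stop codon, 47.7% had it. These are unlike sets, since members were counted as genes and only 46 of the 59 have 20 bases or more after the stop codon. Where the platelet messages themselves end was not measured.

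**Figure D3:**
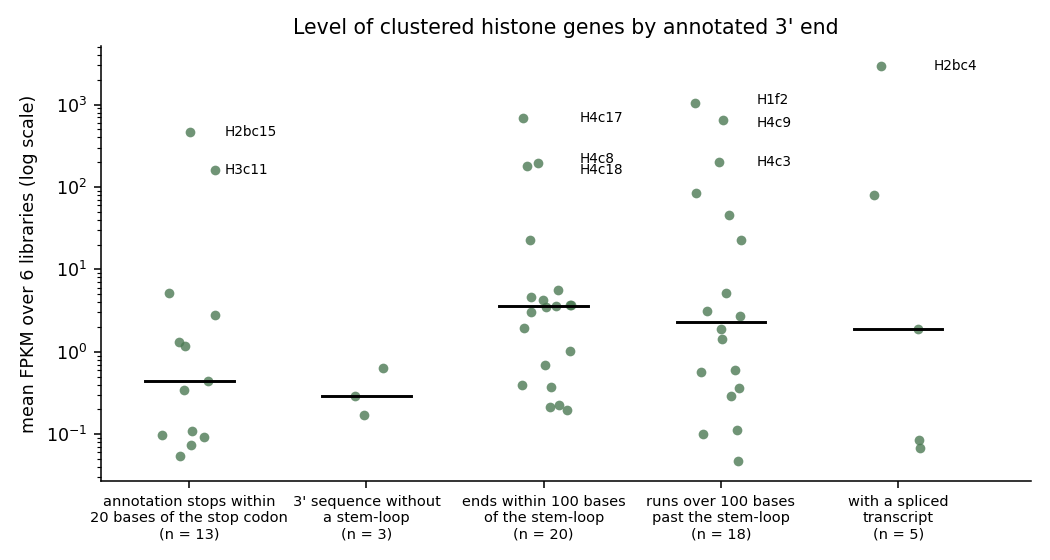
Mean FPKM over the 6 libraries, on a log scale, of the 59 clustered members grouped by their annotated 3' end, with 1 point per gene and a bar at the group median. The named members are the 9 with a mean above 100 FPKM, and they occur in 4 of the 5 groups. Medians are 0.439, 0.294, 3.56, 2.29 and 1.88 FPKM from left to right.

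The highest levels came from a few loci, with neighbours at low levels. In the stretch of chromosome 13 from 23531050 to 23934156, 19 of 30 clustered members averaged 1 FPKM or more and 6 reached 50 FPKM, H2bc4 being the highest. In the stretch from 21715763 to 22043676 on the same chromosome, 13 of 22 reached 1 FPKM and 5 reached 50 FPKM, led by H4c17. On chromosome 3, between 96220361 and 96270132, 2 of 7 reached 1 FPKM and none reached 50 FPKM, the highest being H3c15 with 3.12 FPKM. Position is given on GRCm38.

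Control and pre-AML platelets were then set side by side. The contrast was known when the family was chosen, so the following is a description. Differences are of mean log2(FPKM + 1), pre-AML minus control, with the standard error of limma-trend, over the 41 members (34 clustered, 7 variants) among the 4412 genes that averaged 1 FPKM or more. At an adjusted p under 0.05, 0 of the 41 members were called, against 0.0227% of all tested genes. At an unadjusted p under 0.05, 4 members (H4c17, H2ac4, H2bc12 and H1f0) were higher in pre-AML platelets, against 2.56% of all tested genes, and 2 (H2bc22 and H3c15) were lower, against 6.53%. All pre-AML libraries lay above all controls for 6 members (H4c17, H4c8, H2ac4, H1f0, H2ax and H2az2), against 6.14% of all tested genes, and below all controls for 2 (H2bc22 and H3c15), against 12.8%. With libraries scaled to recovered reads, 7 members were higher at an unadjusted p under 0.05, against 5.71% of all tested genes, and 2 were lower, against 5.83%. Under that scaling 8 lay above all controls, with H2bc12 and H4c18 added, against 10.9%, and the same 2 lay below, against 9.77%. Nothing is read from these counts, since the members were picked with the contrast known.

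The median difference was -0.15 for the 34 clustered members and 0.18 for the 7 variants, against -0.06 for all tested genes. Scaled to recovered reads, these were -0.04, 0.31 and 0.05. Without pre-AML 3 they were -0.04, 0.13 and -0.02. Of the clustered members, 11 had a difference above 0 and 23 below, and 41.5% of all tested genes were above 0. The split was 15 and 19 both with libraries scaled to recovered reads and without pre-AML 3. By type, 5 of 7 H4 genes were above 0, against 3 of 8 H2A genes, 2 of 10 H2B genes and 1 of 8 H3 genes. The medians of these types were 0.26 for H4, -0.11 for H2A, -0.32 for H2B and -0.15 for H3. Without pre-AML 3 they were 0.31 for H4, 0.07 for H2A, -0.12 for H2B and -0.12 for H3, and scaled to recovered reads 0.32, 0.01, -0.20 and -0.06. Leaving out control 2 brought that of H4 to -0.04, and removing trends of GC content and length brought it to 0.09.

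Of 4 members with high levels, 3 had a difference whose direction turned with the processing. The difference was -0.18 (SE 0.13) for H2bc4 and -0.12 (SE 0.15) for H1f2, and without pre-AML 3 it was -0.10 and 0.00 for them. Scaled to recovered reads, that of H2bc4 was -0.04. For H2bc15 it was -0.01 (SE 0.16) and for H3f3a -0.03 (SE 0.17). H1f2, H2bc15 and H3f3a turned to values above 0 with libraries scaled to recovered reads and without pre-AML 3, at 0.01, 0.13 and 0.10 in the first case, so no direction is given for them.

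**Figure D4:**
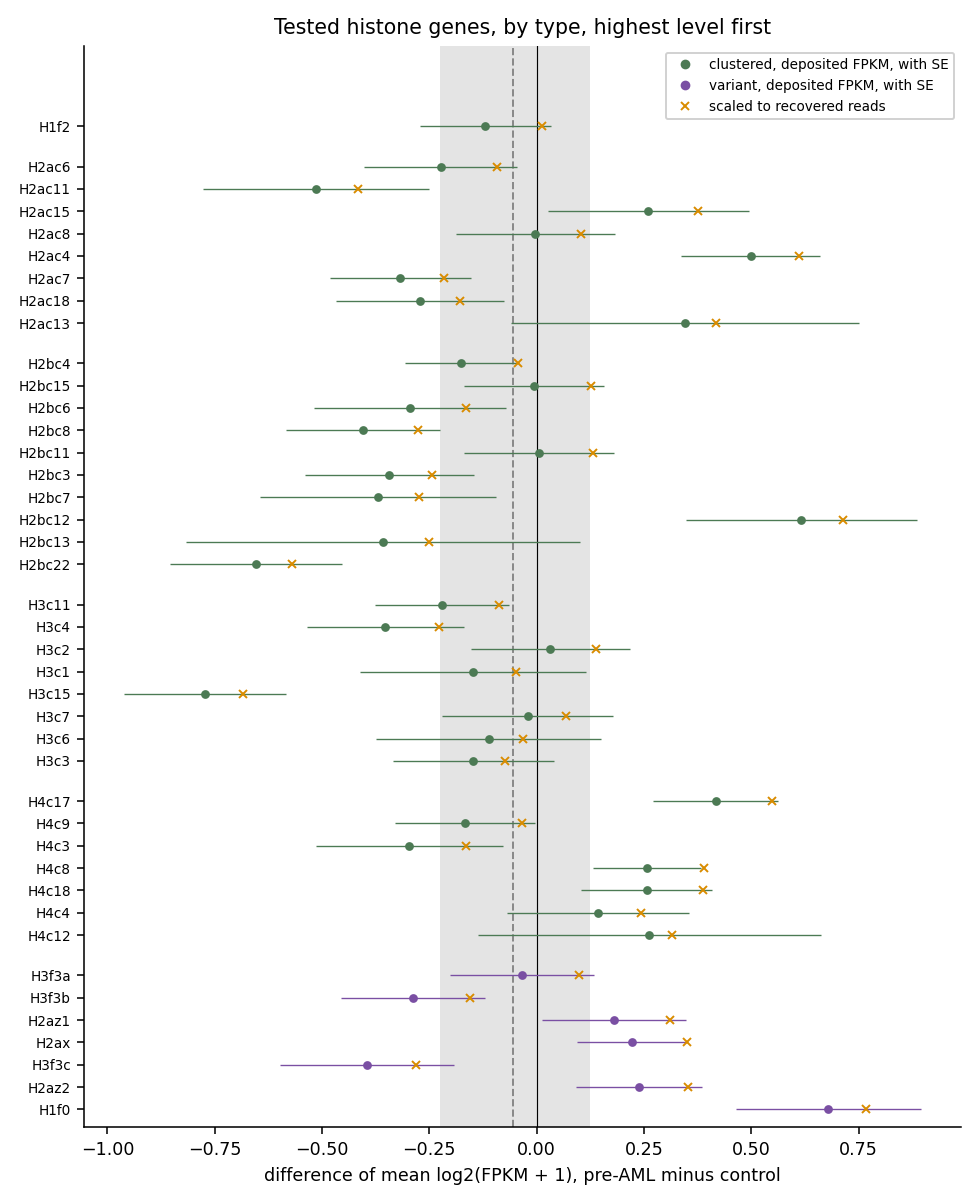
Difference of mean log2(FPKM + 1), pre-AML minus control, for the 41 tested members, grouped by type and ordered by level, with bars of 1 standard error from limma-trend on deposited FPKM and crosses for libraries scaled to recovered reads. The grey band spans the 25th to 75th percentile of all 4412 tested genes and the dashed line is their median, -0.06. H4c17, H2bc12, H2ac4 and H1f0 lie farthest to the right and H3c15 and H2bc22 farthest to the left.

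The largest differences among clustered members were in scarce messages, apart from H4c17. H4c17 differed by 0.42 (SE 0.15), and by 0.55 with libraries scaled to recovered reads, 0.47 without pre-AML 3 and 0.23 with trends of GC content and length removed. H2bc12, at 2.86, 2.54 and 1.24 FPKM in controls and 5.21, 4.04 and 2.52 FPKM in pre-AML platelets, differed by 0.62 (SE 0.27) on 7 to 33 reads per library, and by 0.37 without control 3. H2ac4 was at 3.42, 2.25 and 3.02 against 3.97, 4.48 and 4.98 FPKM and differed by 0.50 (SE 0.16), or 0.23 with trends of GC content and length removed. In the other direction, H3c15 was at 3.34, 5.504 and 3.79 against 2.43, 1.82 and 1.81 FPKM, a difference of -0.77 (SE 0.19), and H2bc22 at 2.05, 2.11 and 3.45 against 0.958, 1.31 and 1.40 FPKM, a difference of -0.65 (SE 0.20). These groups did not overlap for H3c15 and H2bc22. H2ac11 was at 5.45, 7.18 and 7.10 against 5.42, 5.74 and 2.39 FPKM, with overlap and a difference of -0.51 (SE 0.26), which was -0.19 without pre-AML 3. Of the 50-base stretches of H3c15, 63.5% occur in other genes, and 44.1% of those of H2bc22 do.

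Among variants H1f0 differed most, by 0.68 (SE 0.22). H2az2 differed by 0.24 (SE 0.15), H2ax by 0.22 (SE 0.13) and H2az1 by 0.18 (SE 0.17), and H3f3b by -0.29 (SE 0.17) and H3f3c by -0.40 (SE 0.20). With trends of GC content and length removed, H2ax was at -0.04 and H3f3b at -0.09. Single libraries moved several of these values. H2az1 was at 0.02 without control 3 and 0.30 without control 1, and at 0.31 scaled to recovered reads. Without pre-AML 3, H2az2 was at 0.13 and H3f3c at -0.24. The FPKM ratio of H3f3a to H3f3b was 2.30 ± 0.329 (SD, n = 3) in controls and 2.73 ± 0.193 (SD, n = 3) in pre-AML platelets.

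Ratios between H4 genes inside a library do not depend on how libraries are scaled, and these pairs were chosen after their values were seen. The ratio of H4c17 to H4c9 was 0.829, 0.882 and 0.846 in controls and 1.21, 1.21 and 1.42 in pre-AML platelets. That of H4c18 to H4c9 was 0.235, 0.247 and 0.234 against 0.326, 0.295 and 0.342, and that of H4c8 to H4c3 was 0.839, 0.841 and 0.781 against 0.950, 1.16 and 1.59. The groups did not overlap in any of the 3 ratios. The ratio of H4c17 to H4c18 was 3.53, 3.57 and 3.62 against 3.72, 4.10 and 4.15, also without overlap. How many other gene pairs separate the groups in this way was not counted, so nothing is read from the missing overlap. Base composition moved with these ratios: H4c17, H4c18 and H4c8 have 60.7%, 59.1% and 57.9% GC, and H4c9 and H4c3 have 52.8% and 48.4%. Over the tested genes, each library's deviation from the gene mean was correlated with GC content (Spearman). The correlation was -0.30, -0.40 and -0.31 in controls 1 to 3, and -0.05, 0.32 and 0.49 in pre-AML 1 to 3. The groups did not overlap in this trend either. On deposited FPKM the difference was 0.42 (SE 0.15) for H4c17, 0.26 (SE 0.15) for H4c18 and 0.26 (SE 0.13) for H4c8. For H4c9 it was -0.17 (SE 0.16) and for H4c3 -0.30 (SE 0.22). Without pre-AML 3 those of H4c9 and H4c3 were -0.03 and -0.05, and scaled to recovered reads -0.03 and -0.17. With each library's trends of GC content and length removed, the difference was 0.23 for H4c17, 0.09 for H4c18 and 0.10 for H4c8. For H4c9 and H4c3 it was then -0.25 and -0.26. The part of base composition in the ratios was not tested.

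**Figure D5:**
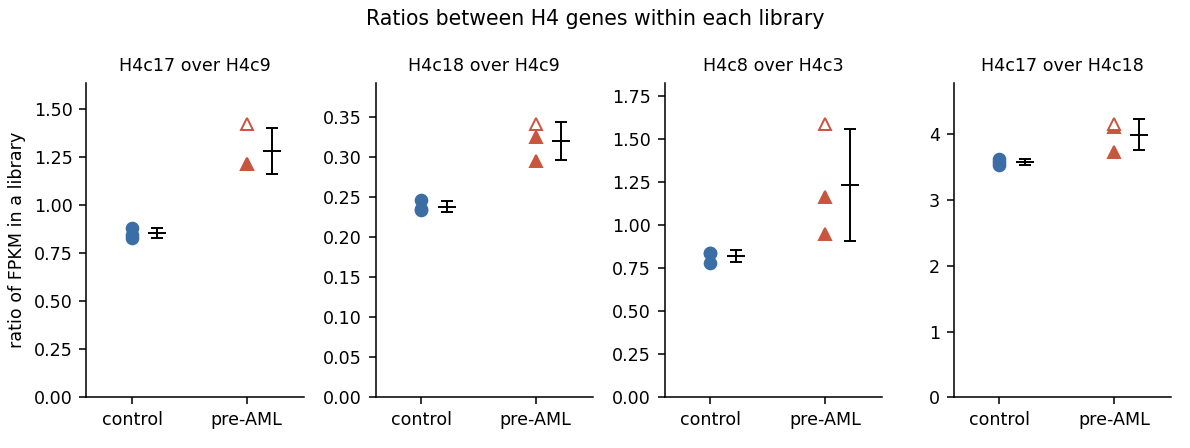
Ratio of FPKM between pairs of clustered H4 genes within each library, with the axis from 0. Circles are controls, filled triangles pre-AML 1 and 2, open triangles pre-AML 3, and black bars the mean ± SD of 3 libraries. H4c17 over H4c9 is 0.852 ± 0.0269 in controls and 1.28 ± 0.120 in pre-AML platelets.

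Genes that make or handle histone messages in dividing cells were mostly at low levels. Over all tested genes, 2.56% were higher and 6.53% lower at an unadjusted p under 0.05 by limma-trend, with a median difference of -0.06. Of 17 listed genes of histone mRNA processing and transcription, 2 were tested, and 1 was lower and 0 higher at that p. Their median difference was -0.16. The lower gene was Eri1, an exonuclease that trims histone messages at the stem-loop. It was at 16.7, 17.8 and 19.2 FPKM in controls and 12.3, 14.9 and 8.40 FPKM in pre-AML platelets, a difference of -0.59 (SE 0.20). Lsm10, a part of the U7 particle that cuts histone messages, was at 9.12, 9.87 and 8.29 against 7.97, 12.9 and 13.3 FPKM. Cpsf2 had a mean of 0.812 FPKM, and Slbp, the stem-loop binding protein, was at 0.136 to 0.480 FPKM in the 6 libraries.

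Of 30 genes of histone chaperones and exchange factors, 6 were tested and 0 were higher or lower. Their median difference was 0.18, against -0.06 for all tested genes. Nap1l1, a carrier of H2A and H2B, was at 33.0, 30.2 and 30.6 against 30.4, 28.0 and 15.1 FPKM. Nap1l4 had a mean of 5.44 FPKM and Npm1, a nucleolar chaperone, was at 1.02, 1.25 and 0.568 FPKM in controls and 0.874, 2.31 and 4.49 FPKM in pre-AML 1 to 3, with overlap. Of 30 genes of S phase and proliferation, 1 was tested and it was neither higher nor lower. This was Pcna, the clamp of DNA polymerases, with 1.88, 1.27 and 1.96 against 2.38, 1.57 and 2.20 FPKM. Fen1 and E2f1 followed with means of 0.941 and 0.620 FPKM. The summed FPKM of the 30 genes was 5.52, 7.99 and 5.64 in controls and 6.98, 8.78 and 16.9 in pre-AML platelets, highest in pre-AML 3.

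Markers of platelets were present in every library, and some markers of other blood cells were higher in pre-AML platelets. Over all tested genes, 2.56% were higher and 6.53% lower at an unadjusted p under 0.05 by limma-trend. Of all tested genes, 41.5% had a difference above 0, and the median difference was -0.06. All 14 platelet markers were tested, with 0 higher or lower at that p and a median difference of -0.10. Their summed FPKM was 62426 in pre-AML 3 and 91039 to 114989.9 in the other 5, led by Pf4 and Ppbp, chemokines of platelet granules. The marker sums are in deposited FPKM and were not rescaled. The size behind the FPKM of pre-AML 3 was 1.31 times its recovered reads, so part of its lower platelet sum comes from scaling. Of the 12 B cell genes 7 were tested, and all 7 had a difference above 0 while 0 passed. The 12 genes summed to 313 FPKM in pre-AML 3, 30.05 in pre-AML 2 and 1.60 to 2.95 in the other 4. Cd74 was at 168 and H2-Ab1 at 33.7 FPKM in pre-AML 3.

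Of the 16 monocyte and macrophage genes 10 were tested, with 10 above 0 and 1 higher, against 41.5% and 2.56% of all tested genes. Of the 16, 5 were at 0 in all controls and 1 was at 0 in pre-AML 3, and the like shares of all genes were not counted. The sum of the 16 was 3549 FPKM in pre-AML 3 and 2340.5 to 2616 in the other 5 libraries. Lysozyme, Lyz2, made most of it with 3093 FPKM in pre-AML 3 and 2334 to 2615 in the others. Tyrobp, an adaptor of immune receptors, was at 153 FPKM in pre-AML 3, 4.85 and 4.37 in pre-AML 1 and 2, and at most 0.533 in controls. The 13 listed T and NK cell genes summed to 19.1 to 28.8 FPKM in controls and 35.4 to 49.8 in pre-AML platelets. Of these, 3 were tested and 2 were higher, against 2.56% of all tested genes. Gzma, a granule protease, was at 0, 0.353 and 0 against 7.25, 4.61 and 8.90 FPKM, and Nkg7 at 18.9 to 28.2 in all 6.

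Of 12 erythroid genes 9 were listed, 3 were tested and 1 was higher, against 2.56% of all tested genes. The 9 listed genes summed to 2351 to 2653 FPKM in controls and 2378 to 2991 in pre-AML platelets, with Hba-a1 and Hbb-bt highest. Of 12 neutrophil genes 11 were listed, 2 were tested and 0 passed. Their sum was 3.19 to 3.66 FPKM in controls and 2.18 to 4.998 in pre-AML platelets, led by S100a8 and Mmp8. Of the 11, 4 were at 0 in all controls (Elane, Mpo, Ly6g and Retnlg), and 5 were at 0 in pre-AML 3. Those 4 reached at most 0.239 FPKM in any pre-AML library. The share of all genes at 0 in all controls was not counted. Of 10 leukemic progenitor genes 9 were listed and 0 reached the level for testing, with sums of 1.14 to 2.60 FPKM and Cd34 and Meis1 highest. For 6 members all pre-AML libraries lay above all controls on deposited FPKM. Leaving out pre-AML 3 took the difference from 0.42 to 0.47 for H4c17, 0.26 to 0.31 for H4c8 and 0.50 to 0.43 for H2ac4. It went from 0.22 to 0.23 for H2ax and 0.24 to 0.13 for H2az2, and stayed at 0.68 for H1f0. Pre-AML 1 and 2 also held RNA of other blood cells, with Tyrobp at 4.85 and 4.37 FPKM and Gzma at 7.25 and 4.61 FPKM. The B cell genes summed to 30.05 FPKM in pre-AML 2. The part of other blood cells in the histone values was not tested.

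The counting behind the FPKM limits what a single gene can show. In 30 of the 59 clustered members more than 50% of 50-base stretches also occur in another gene, the median share being 52.3%. The share was 8.54% for H1f2, 30.1% for H2bc4, 14.1% for H2ac6 and 28.9% for H4c9, but 86.5% for H2bc15 and 87.6% for H3c11. How reads that fit several genes were assigned is not given in the sources used here. Exons of 19 clustered members overlap another annotated gene, often on the opposite strand, and whether reads were counted by strand is not given either.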

How the data were processed

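The 6 platelet libraries, 3 control and 3 pre-AML, were compared. Mapping to mm10 with STAR and testing with DESeq2 were done by the authors, who deposited FPKM values for 14975 genes. The program that counted reads, its annotation and its strand setting are not given in the sources used here. The members and gene lists were chosen with earlier results of these data known.

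Reads were recovered as FPKM times library size and exon length (GENCODE M21), and 82.9% of values were whole within 0.05 reads. Genes averaging 1 FPKM or more were fitted on log2(FPKM + 1) by limma-trend (limma 3.58.1 under R 4.3.3), with group as the only term, and p-values were adjusted by the Benjamini-Hochberg method over all 4412 genes. Alternatives were a pseudocount of 0.1, no filter or 5 FPKM, scaling to recovered reads, quantile normalization, limma-voom on recovered reads, removal of length and GC trends, a replicate block and leaving out each library. Named members were the variants averaging 1 FPKM or more, the 12 highest clustered members, and the 3 highest and 3 lowest differences among clustered members. The highest 3 genes of each companion list and 2 of each marker list were named, and further genes were named after their values were seen. Fits were tested on simulated data. Proteins were translated from GENCODE transcripts and compared by residue.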

Additional observations from a re-analysis of the deposited data

How the results depend on the processing

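In the analysis as reported and in 14 alternatives, 0 members passed an adjusted p of 0.05 by limma. At an unadjusted p under 0.05, 4 members were higher and 2 lower as reported. These counts were 4 and 3 with a pseudocount of 0.1, 4 and 4 with no filter, 1 and 1 from 5 FPKM, 7 and 2 scaled to recovered reads, 6 and 2 by quantile normalization, 4 and 1 by limma-voom, and 1 and 7 with length and GC trends removed. They were 3 and 5 without control 1, 3 and 2 without control 2 or control 3, 1 and 4 without pre-AML 1, 2 and 6 without pre-AML 2, and 6 and 2 without pre-AML 3. With no filter 59 clustered members and 9 variants were fitted, and from 5 FPKM 17 clustered members and 5 variants. Over all tested genes, 113 were higher and 288 lower as reported. The counts were 143 and 311 with a pseudocount of 0.1, 497 and 373 of 14975 with no filter, and 49 and 217 of 2159 from 5 FPKM. They were 252 and 257 scaled to recovered reads, 190 and 280 by quantile normalization, and 231 and 267 by limma-voom. Removing length and GC trends gave 84 and 156. Leaving out controls 1, 2 and 3 gave 69 and 132, 88 and 188, and 99 and 197. Leaving out pre-AML 1, 2 and 3 gave 200 and 447, 124 and 245, and 169 and 206.

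The median difference of clustered members was -0.15 as reported and lay between -0.22 and -0.04 in every alternative. That of the 7 variants was 0.18. It moved beyond the spread between libraries to 0.31 scaled to recovered reads, 0.27 by quantile normalization and 0.32 by limma-voom. It was also beyond that spread at 0.083 with no filter and -0.034 from 5 FPKM. Those 2 medians cover other sets of genes, 9 variants with no filter and 5 from 5 FPKM. Leaving out each library gave 0.017 to 0.22, and the lowest of these, without control 3, was also a move beyond that spread. The summed clustered FPKM without H2bc4 averaged 3905 in controls and 3899 in pre-AML platelets. Of 24 named members, H1f2, H2bc15, H3f3a and H2ax had the other sign in 17 of 330 alternative values. The cause of these changes was not tested.

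The labels do not say whether libraries with the same replicate number belong together. Such libraries had correlations of -0.04, -0.12 and -0.17 between their deviations from the group means. Libraries with unlike numbers had -0.10 to 0.17. Deviations from a mean of 3 libraries constrain each other, so these values cannot decide whether the numbers pair the samples. With the replicate block the medians were -0.15 and 0.18, with 3 members higher and 2 lower at an unadjusted p under 0.05 and 0 after adjustment. Of the 4412 tested genes, 118 were higher and 254 lower at that unadjusted p. The 3 libraries of a group limit what can be called.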
